A study of Drosophila melanogaster with 13 samples.

Results

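The assimilated population of D907 flies was compared with its ancestral population (P0) at every site listed for this pair of pools, 756078 sites in all. No site was left out, and the list is part of the 815027 sites listed for D907 in the comparisons of P0 with its 3 derived pools. D907 is an inbred line of the Drosophila Genetic Reference Panel, and 2 of the 13 sequenced pools of the study enter this comparison. Each pool holds DNA of 100 adult females of 1 population, and the pools were sequenced to a median of 86 reads per listed site in assimilated flies and 87 reads in P0.

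Assimilated flies descend from D907 flies that were heat-shocked as pupae and selected for ectopic veins (EV), extra pieces of wing vein, and that were then selected for EV without heat shock. The pool labelled Non-assimilated (nonassimilated flies) comes from EV selection without heat shock, started from the control population. Control flies were kept under standard conditions with neither heat shock nor selection. P0 flies are the starting population from which the D907 lines were founded. Control and nonassimilated flies serve here only to show where the assimilated pool differs from them. Each population is 1 pool, so every test compares pools, and the spread between populations is not known.

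Genetic assimilation is the process by which a trait first induced by stress comes to appear without it after selection. Pool-seq estimates the frequency of an allele in a population from the share of reads that carry it. Inversions such as In(3R)C, which the study followed on chromosome arm 3R of D907, suppress crossing over with the standard arrangement, so that the alleles within them are inherited together as haplotypes. The word haplotype is used here for a set of neighbouring alleles that share 1 frequency, because reads of a pool do not show which alleles lay on the same chromosome.

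The sites that mark the ends of these comparisons are shown with the 29 bases around them, on the plus strand of the RefSeq Release 6 genome (dm6). The capital letter is the reference base at the listed position, and the base of the alternative allele is not given in the tables. The first pair flanks the junction on 3R at which fixation began, at chr3R:9473919-9473947 and chr3R:9476094-9476122, both in introns of CG16779.
last unfixed site before the junction, 3R: tgttgaatgcccctAgctgttcgattttg
first fixed site after the junction, 3R: cccaccgcgccaacGccctcgattcccgc
At the last unfixed site, 34 of 99 reads carried the alternative allele in assimilated flies, against 17 of 78 reads in P0 (adjusted p of the exact test = 1). At the first fixed site, 0 of 83 reads carried it in assimilated flies, against 43 of 95 reads in P0 (two-sided Fisher's exact test, adjusted p = 4.34e-09). Next come sites of low p of the exact test in the segments that were not fixed. At chr3L:15714800-15714828, between genes, is the lowest p of all listed sites of the 3L segment. At chr3R:5636176-5636204, in the coding sequence of CG31548, is the site of the unfixed part of 3R. Its p was the lowest among sites of that part with both alleles at 0.1 or more in P0. Over all listed sites of that part, a site within 5 kb of Antp had a lower one (exact test, unadjusted p = 2.47e-16).
lowest p in the 3L segment: ttgtatgtgaagtgGaaaatgtcaaagga
lowest p in the unfixed part of 3R: cttggagtgttccaGgaactttttgtacg
The 3L site had the alternative allele in 42 of 90 reads in assimilated flies and in 0 of 81 reads in P0 (exact test, adjusted p = 4.45e-09). The 3R site had it in 66 of 111 reads in assimilated flies and in 22 of 142 reads in P0 (exact test, adjusted p = 1.79e-07). Last come sites at which the allele that reached 100% in assimilated flies had no read in P0 (exact tests), both between genes, at chr3R:19286317-19286345 and chr2L:7579229-7579257.
alternative allele gained and fixed, 3R: accatgtccagtcaAccacttagccatga
alternative allele gained and fixed, 2L: agcatcaaaaatctGttcaaacaatgttt
The 3R site had 104 alternative of 104 reads in assimilated flies, and the reference allele alone in all 98 reads of P0, 74 of control and 95 of nonassimilated flies (exact test, adjusted p = 2.29e-54, the lowest on 3R). The 2L site had 60 of 60 alternative reads in assimilated flies and 0 of 33 in P0 (exact test, adjusted p = 4.72e-20).

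The difference between assimilated flies and P0 lay almost wholly on 1 chromosome arm. A site was called changed where Fisher's exact test (two-sided) on the reads of both alleles in both pools gave a p-value below 1e-05 after Bonferroni's correction over all sites. By this rule 33122 of 756078 sites changed, or 4.38% of the sites tested, and the frequency moved by a median of 0.416 at them (range 0.0687 to 1). Assimilated flies were fixed at 99.2% of the changed sites, that is, 1 allele had a frequency of at most 0.02. The alternative allele rose at 23116 of the changed sites and fell at 10006, counts that leave out sites not listed for the assimilated pool. All but 219 of the changed sites were on 3R, where 17.5% of the listed sites changed. The other arms had 40 changed sites on X, 22 on 2L, 21 on 2R, 27 on 3L and 3 on chromosome 4, with 5 on Y and 101 on unplaced sequence. At 571856 of the listed sites (75.6%) neither pool had a read of the reference allele, so that these sites could not differ. The changed sites of unplaced sequence had a median depth of 436 reads, far above that of the listed sites, and a median change of 11.7 percentage points. The pools hold DNA of females only, yet sites on Y were listed, with a median depth of 11 reads in both pools. The 5 changed sites of Y had a median depth of 623 reads. The origin of the reads placed on Y was not tested.

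Fixation was followed at segregating sites, at which both alleles had a frequency of at least 0.1 in P0. There were 148461 such sites, 113558 of them on 3R, 9910 on 3L, 6482 on X, 5720 on 2R, 2857 on 2L and 307 on chromosome 4. On 3R 84.2% of the segregating sites were fixed in assimilated flies. On the other arms the share was 7.54% on X, 6.27% on 2L, 6.03% on 2R, 5.86% on chromosome 4 and 2.97% on 3L. The median change in frequency at segregating sites was 0.311 on 3R and 0.150 on 3L, and between 0.0416 and 0.0565 on the other 4 arms. Arm 3L thus stood out by the size of the change at its segregating sites and not by fixation. Segregating sites were chosen by their P0 reads, so these shares are a description and were not tested.

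Most of the segregating sites of P0 fell into 3 segments in which neighbouring sites had nearly the same frequency. The segments were defined on P0 frequencies at the sites listed for this pair of pools. They are stretches of 100-kb windows with at least 50 segregating sites and an SD of the rarer allele's frequency of at most 0.08. The list is not independent of the assimilated pool, since it lacks more of the P0 variation in some stretches than in others. They covered 25.479 Mb, at chr3L:15700001-16700000, chr3R:5400001-15400000 and chr3R:17600001-32079331, and held 115188 segregating sites, 83.0% of those on the 6 arms. In assimilated flies 82.8% of the sites within the segments were fixed, against 6.66% of the 23646 segregating sites outside them. The median change was 0.310 within the segments and 0.0555 outside them. Another 141 windows were as dense but had a wide spread of P0 frequencies, and 117 of these lay near a centromere. They had 7.88% of their 15184 segregating sites fixed.

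In assimilated flies 2 runs of fixed windows covered the larger part of the 3R segments. Run 1 spanned chr3R:9500001-15400000, where 19042 of 19508 segregating sites (97.6%) were fixed, and run 2 spanned chr3R:17600001-32079331, where 76238 of 77703 (98.1%) were fixed. The runs held 16271 and 16510 changed sites, 49.1% and 49.8% of all changed sites. This even split held at this threshold only, with 11399 and 2294 sites at 1e-08, 7855 and 233 with reads weighted for 200 chromosomes, and 19352 and 77023 by a Benjamini-Hochberg adjusted p below 0.05. As a share of segregating sites, however, 83.4% changed in run 1 and 21.2% in run 2, and the lost allele averaged 48.0% in P0 in run 1 and 30.8% in run 2. Between the runs, over 2.2 Mb that include the bithorax complex, P0 itself had only 100 segregating sites, 10 of them fixed in assimilated flies, and 1 changed. The unadjusted p-value of the exact test was below 0.05 at 99.1% of the segregating sites of run 1 and at 99.3% of those of run 2. Both shares follow largely from the choice of the runs as windows fixed in the same reads, and they are no test of the runs.

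The proximal end of run 1 was sharp. Of the 50 segregating sites before the junction in CG16779, none was fixed in assimilated flies, and of the 50 sites after it all were. Over the same sites the rarer allele had a mean frequency of 16.7% ± 3.60 in P0 before the junction and of 41.8% ± 4.74 after it (SD over sites), so that the ancestral pool changed level at the same place. Before the junction this allele stood at 38.7% in assimilated flies. Ras85D, the small GTPase of receptor tyrosine kinase signalling, lies just beyond the junction, and all of its 21 segregating sites were fixed.

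**Figure D1:**
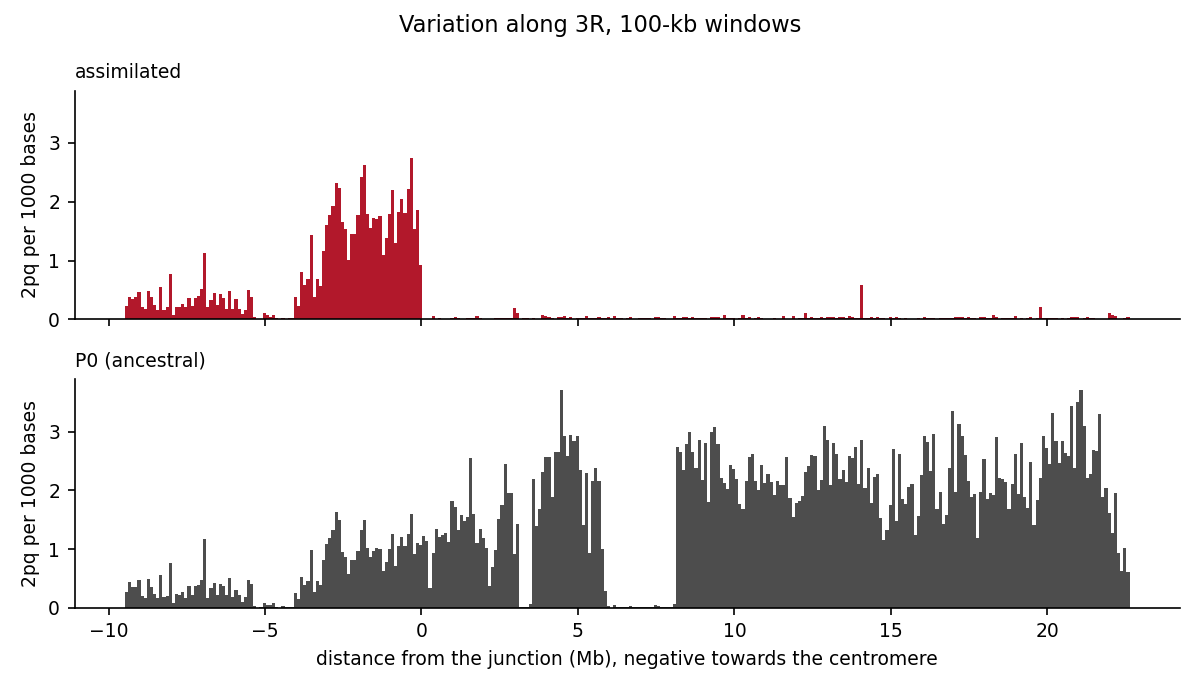
Expected heterozygosity (2pq, summed over listed sites and given per 1000 bases) in 100-kb windows along 3R, against the distance from the junction in Mb, in assimilated flies (top) and P0 (bottom). Beyond the junction the bars of assimilated flies are close to 0 while P0 has 2 blocks of variation, and on the 4 Mb before the junction the bars of assimilated flies are taller than those of P0.

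The alleles that disappeared differed in their P0 frequency between the runs. In run 2 the lost allele was the rarer one of P0 at nearly all sites: it had a mean frequency of 0.0110% in assimilated flies and 30.8% ± 5.89 in P0 (SD over 76238 sites), and it was the commoner allele of P0 at 394 sites (0.517%). This level was nearly constant along the run, since the means of 145 windows of 100 kb ranged from 29.2% to 33.1% in P0, with an SD of 0.774 percentage points. The sampling of reads alone gives an SD over sites of 4.98 percentage points at this depth. The lost allele was the alternative one at 38.8% of the listed sites of both runs. With sites of the control table that are not listed for assimilated flies taken as lost alternative alleles, the share was 56.1% in run 2 and 53.1% in run 1. Of the 200 chromosomes of a pool, a mean of 30.8% has a Wilson 95% interval of 25.0% to 37.7%, which covers the sampling of chromosomes only.

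In run 1 the lost alleles had intermediate frequencies in P0, and their level changed along the run. Their mean was 0.0128% in assimilated flies and 48.0% ± 7.72 in P0 (SD over 19042 sites, Wilson 95% interval 41.2% to 54.9%). At 37.4% of sites the allele that was lost had been the commoner one. The sampling of reads alone gives an SD over sites of 5.46 percentage points in P0 in this run. At levels this near equal frequencies, which allele is counted as the commoner one also depends on this sampling. From 9.5 to 12.1 Mb the lost alleles averaged 54.9% in nonassimilated flies, 60.5% in control flies and 47.8% in P0. From 12.1 to 14.7 Mb the averages were 28.2% in nonassimilated flies, 73.5% in control flies and 48.1% in P0. P0 thus had nearly the same level in both stretches, apart from the windows next to the junction, the lowest at 41.7%, while the control and nonassimilated pools moved apart. From 14.7 to 15.1 Mb the averages were 35.5% in nonassimilated flies, 83.8% in control flies and 55.0% in P0, and the lost allele had been the commoner one in P0 at 78.1% of these sites. In the last stretch, from 15.1 to 15.4 Mb, they were 10.6%, 31.7% and 33.7% in the same order, close to the P0 level of run 2. In nonassimilated flies this mean came from the window at 15.1 to 15.2 Mb, with 17.01%, while the windows at 15.25 and 15.35 Mb had 0.0480% and 0%.

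The changes of level within run 1 were placed by least squares, which always sets a step between neighbouring sites. How abrupt they were was not tested, and the pools did not all change at the same place. The first lay between positions 12058426 and 12062406, at CG14740, where the mean over 100 sites was 28.7% after and 55.5% before the step in nonassimilated flies, 74.3% after and 82.4% before it in control flies, and 48.0% after and 46.3% before it in P0. The higher level of control flies began nearer the centromere, with 69.3% in the window at 12.05 Mb and 56.5% in that at 11.95 Mb. The second lay between 14749268 and 14749656, at smp-30 and jvl, with 56.0% after and 49.1% before it in P0, and 85.4% after and 75.1% before it in control flies. In nonassimilated flies the means were 36.3% after and 25.0% before the second step. The third lay between 15121762 and 15122209, at CG42788, with 32.2% after and 53.1% before it in P0, and 25.2% after and 81.6% before it in control flies. In nonassimilated flies the means were 25.6% after and 35.0% before the third step, and the fall to near 0 came further on. The assimilated pool had lost these alleles on both sides of each step, with means of at most 0.0354%.

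**Figure D2:**
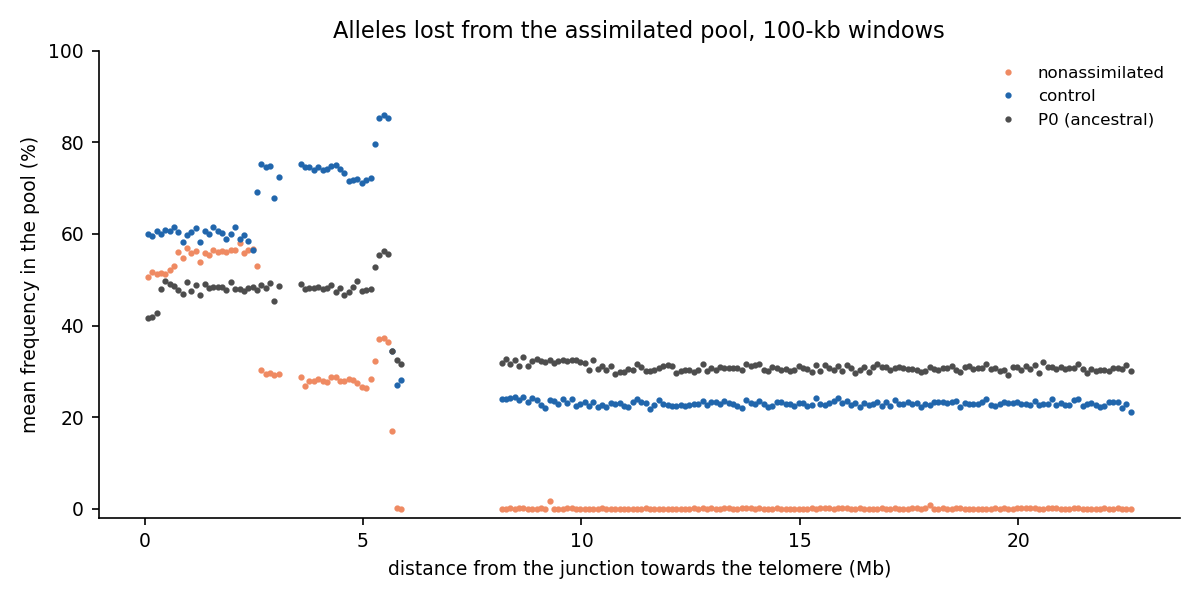
Mean frequency, in percent, of the alleles lost from the assimilated pool in 100-kb windows of the 2 runs, against the distance from the junction in Mb, in nonassimilated flies, control flies and P0. In run 1 (left) the levels of the 3 pools change along the run, and in run 2 (right) P0 lies near 30.8%, control flies near 23.0% and nonassimilated flies near 0.

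The assimilated pool shared the loss in run 2, but little of that in run 1, with nonassimilated flies. Of the alleles lost from assimilated flies, nonassimilated flies had lost the same one at 99.5% of the sites of run 2 and at 2.56% of those of run 1. At the distal end of run 1, from 15.1 to 15.4 Mb, the share was 61.2%. Control flies still had the lost alleles of run 2 at 23.0% ± 5.54 (SD over sites, Wilson 95% interval 17.7% to 29.3%) and those of run 1 at 68.1% ± 12.9 (61.2% to 74.1%). In a direct comparison of the reads, assimilated and control flies differed at 21651 of 740755 sites (2.92%), of which 18115 were in run 1 and 1355 in run 2. Assimilated and nonassimilated flies differed at 8311 of 741518 sites (1.12%), of which 7842 (94.4%) were in run 1 and 47 in run 2. These comparisons share the assimilated pool, and the comparison of each with P0 shares the P0 pool. Of the fixed sites, 90.7% in run 1 and 94.5% in run 2 were also listed in the first experiment on Mix, the outbred population of the study to which D907 contributed.

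Of the segments that segregated in P0, 2 stretches were not fixed in assimilated flies, and there the rarer allele of P0 was more frequent. In the 3L segment it averaged 43.8% ± 7.07 in assimilated flies and 22.8% ± 5.41 in P0 (SD over 5501 sites), and it was higher in assimilated flies at 98.8% of sites. The Wilson 95% intervals for 200 chromosomes were 37.3% to 50.9% in assimilated flies and 17.7% to 29.3% in P0. At the level of single sites only 2 of the 5501 segregating sites changed, although 79.0% had an unadjusted p-value below 0.05. Only 6 of the sites were fixed. The segment holds argos (aos), which encodes a secreted inhibitor of the EGF receptor, a receptor that promotes wing veins. At the 94 segregating sites of aos the rarer allele averaged 40.4% ± 5.52 in assimilated flies and 25.5% ± 6.76 in P0 (SD over sites), and none was fixed or changed.

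On proximal 3R, at chr3R:5400001-9476107, the rarer allele of P0 averaged 42.1% ± 7.07 in assimilated flies and 18.2% ± 5.01 in P0 (SD over 12363 sites). It was higher in assimilated flies at 99.2% of the sites, 12 of the sites were fixed, and 88.9% had an unadjusted p-value below 0.05. Only 6 of them changed, against 16263 of the 19508 segregating sites of run 1. The stretch reached from 5.4 Mb to the junction, and the ancestral frequency in it had 2 levels. Up to position 6881936 the mean was 42.8% in assimilated flies (Wilson 95% interval 36.3% to 49.9%) and 21.3% in P0 (16.4% to 27.7%). From there to the junction it was 41.8% in assimilated flies (35.4% to 48.9%) and 17.1% in P0 (12.4% to 22.8%). The step between both levels lay between positions 6881936 and 6882608 in the lncRNA gene CR44931, beyond ftz and before Antp. In the 100 sites on either side of it the assimilated pool had 43.4% after and 43.0% before the step, P0 had 16.2% after and 22.0% before it, and control flies had 7.18% after and 30.8% before it.

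Control flies lay below assimilated flies in all of these stretches, with overlapping intervals only on 3R before the step. The rarer allele of P0 averaged 9.42% in control flies in the 3L segment (Wilson 95% interval 6.17% to 14.4%), 30.7% on 3R before the step (24.5% to 37.2%) and 8.77% from the step to the junction (5.77% to 13.8%). In nonassimilated flies it averaged 34.7% in the 3L segment (28.3% to 41.3%), 22.4% before the step (17.3% to 28.8%) and 22.2% after it (16.8% to 28.2%). The intervals of assimilated and nonassimilated flies overlapped in the 3L segment and did not overlap on either part of proximal 3R. In the reads, assimilated flies differed from control flies at 609 sites of the 3L segment (8.19%) and 1255 sites of proximal 3R (7.58%), against 2.92% of all sites. From nonassimilated flies they differed at 107 (1.35%) and 6 sites (0.0351%), against 1.12% of all sites. These counts do not rank the stretches. Against nonassimilated flies the unadjusted p-value of the exact test was below 0.05 at 1233 of 7945 sites of the 3L segment and at 9637 of 17074 sites of proximal 3R.

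**Figure D3:**
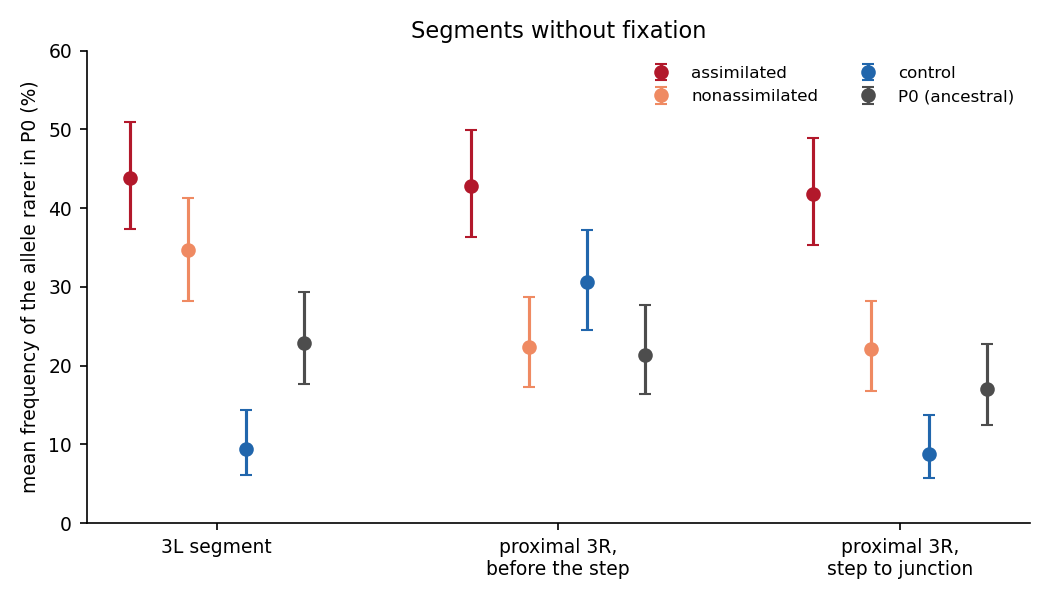
Mean frequency, in percent, of the allele rarer in P0 over the segregating sites of the 3L segment and of the 2 parts of proximal 3R, in assimilated, nonassimilated, control and P0 flies. Bars are Wilson 95% intervals for a pool of 200 chromosomes, and assimilated flies lie between 41.8% and 43.8%, above P0 in all 3 stretches.

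Named genes of the pathways that pattern wing veins lay on both sides of this divide. Among all genes with at least 5 segregating sites in the gene or the 5 kb around it, 3115 of 6294 (49.5%) had at least 90% of these sites fixed and 2535 (40.3%) had at most 10% fixed. Of the 67 vein genes found by name, 28 had that many segregating sites, 18 of them had at least 90% fixed, 8 had at most 10% fixed, and Notch (N) and echinoid (ed) lay between with 2 of 13 and 1 of 9 sites fixed. Of protein-coding genes alone, 2341 of 3707 (63.2%) had at least 90% fixed, against 64.3% of the vein genes. The median change of the list was 29.4 percentage points, against 28.3 over all genes. Of the 28 genes 19 are on 3R, where 3111 of 4141 genes (75.1%) had at least 90% fixed. Genes that lie close together share sites through the 5 kb around them, so their counts are not independent.

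In the EGF receptor pathway, the ETS transcription factor gene pnt had 374 of 381 segregating sites fixed, and the lost allele averaged 32.2% ± 6.01 in P0 (SD over sites). Ras85D lost alleles that averaged 43.9% ± 4.66 in P0. In the Notch pathway, the ligand gene Ser had 166 of 168 sites fixed, Hairless (H), a repressor of Notch targets, had 76 of 78 and the corepressor gene gro had 76 of 76. The E(spl) genes m8, m7, m5 and m3, which encode repressors induced by Notch, were fixed at every segregating site. All of these Notch genes lie in run 2 and lost an allele that averaged between 28.7% and 32.2% in P0. Neuralized (neur), the ubiquitin ligase that activates Notch ligands, lies in the unfixed part of 3R and had 0 of 136 sites fixed. There the rarer allele averaged 41.0% ± 5.62 in assimilated flies and 16.96% ± 4.24 in P0 (SD over sites).

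Genes of the BMP and Hedgehog pathways within the runs were fixed at most sites. Between the runs, the BMP inhibitor gene Dad had 1 segregating site, which was not fixed, and the crossvein gene cv-d had none. In run 2, hh, which encodes the Hedgehog ligand, had 135 of 139 sites fixed, the co-Smad gene Med had 47 of 48, and the metalloprotease genes tok and tld had 267 of 269 and 100 of 100. In run 1 the BMP receptor gene put had 41 of 42 and the crossvein gene cv-c had 621 of 629. The contrast between the runs shows in these genes, since cv-c lost alleles that averaged 48.5% ± 7.40 in P0 and tld alleles that averaged 30.1% ± 3.85 (SD over sites). Off 3R the receptor gene tkv, with 6 segregating sites, and the BMP antagonist gene sog, with 12, had none fixed.

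Of 13 candidate genes named by the study 12 were found, 5 had at least 5 segregating sites, and 4 of these were fixed at 90% or more. Those 4 lie on 3R, where 75.1% of all genes with that many sites were. Hsp83 on 3L, which the study named for D907 beside Cad96Ca, had no segregating site, nor had CG4250 and Cyp9c1. Between the runs, Pxd, CG8907 and CG31262 had 0 of 4, 0 of 1 and 0 of 1 sites fixed. Vajk1 on 2L had 0 of 1. Cad96Ca, a receptor tyrosine kinase gene, was fixed at 88 of 88 sites and had lost an allele that averaged 30.2% ± 7.76 in P0 (SD over sites). Of its 114 listed sites, 9 changed. The wing patterning gene tx was fixed at 115 of 118 sites and had lost 29.2% ± 6.29. Both lie in run 2. In run 1, kibra, an upstream regulator of the Hippo pathway, was fixed at 162 of 163 sites and had lost 47.3% ± 7.80. Ect3 was fixed at 82 of 83 and had lost 48.4% ± 4.62. Of the listed sites, 136 of 267 changed in kibra and 76 of 129 in Ect3. The potassium channel gene SK on X was fixed at 1 of 19 sites, and none changed. The study named these candidates from its selection lines, most of them from those of Mix.

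Of the Hippo pathway, which limits organ growth, 7 genes had enough sites, and 5 were fixed at 90% or more. Besides kibra these were sav with 75 of 76 sites, the kinase gene wts with 100 of 104, its activator mats with 98 of 98 and the casein kinase gene dco with 101 of 101. These 5 lie on 3R, where 75.1% of all genes with enough sites had at least 90% fixed, against 49.5% over all arms. Mer, with 1 of 12 sites, and ds, with 2 of 8, lie off 3R. In the heat shock list 11 genes had enough sites, all of them on 3R. Of these, 6 (54.5%) were fixed at 90% or more, against 75.1% of all genes of 3R. Hsp68 at 58 of 58 and Hsc70-4 at 41 of 41 were among the 6. The Hsp70 genes, which encode the main inducible chaperones and lie in run 1, were split. Hsp70Aa and Hsp70Ab were fixed at 18 of 18 and 23 of 23 sites, while Hsp70Ba, Hsp70Bbb, Hsp70Bb and Hsp70Bc were fixed at 22 of 30, 17 of 37, 15 of 32 and 14 of 25. Hsp70Bbb, Hsp70Bb and Hsp70Bc lie side by side and share sites. The Hsp70 genes are near-identical copies, among which short reads can be misplaced, so their counts are uncertain. A site in the UTR of Hsp70Bb, at position 12505999, had 256 of 256 alternative reads in assimilated flies and 122 of 247 in P0 (exact test, adjusted p = 6.81e-43), a depth far above the medians of 86 and 87 reads. The fifth gene between the bounds was the heat-inducible lncRNA gene Hsromega, with 48 of 55 sites fixed.

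The genes of the Antennapedia complex, homeotic genes and their neighbours zen, bcd and ftz, lay in the unfixed part of 3R. All 8 with enough sites (lab, pb, zen, bcd, Dfd, Scr, ftz and Antp) had at most 10% of their sites fixed, 3 of their sites in all. Of all genes of 3R with enough sites, 819 of 4141 had at most 10% fixed. At the 133 sites of lab, which patterns the head, the rarer allele averaged 43.8% ± 6.04 in assimilated flies and 21.0% ± 5.09 in P0 (SD over sites). At the 372 sites of Antp, which specifies thoracic segments, it averaged 42.0% ± 7.19 in assimilated flies and 17.2% ± 4.71 in P0. Of the 498 listed sites of Antp, segregating or not, 5 changed. The step at ftz divides the complex, and the P0 levels of both genes are those of the parts on either side of it. Ubx, abd-A and Abd-B had 3, 1 and 2 segregating sites.

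The variation that assimilated flies kept was spread over the genome differently from that of P0. Mean 2pq, the expected heterozygosity over listed sites, was 0.0300 in assimilated flies and 0.0808 in P0, a ratio of 0.371. Sites not listed for the assimilated pool are left out, among them 30097 in run 2 and 5815 in run 1 that segregated in P0. Their alternative allele averaged 31.7% in run 2 and 47.6% in run 1 in P0. The P0 sums of 2pq given here for 3R and its runs are therefore too low. On 3R it was 0.0438 in assimilated flies and 0.252 in P0. On 3L it was higher in assimilated flies, with 0.0278, than in P0, with 0.0229. The other long arms differed less, with 0.0253 in assimilated flies and 0.0252 in P0 on X, 0.00827 and 0.00814 on 2L, and 0.0171 and 0.0172 on 2R. The fixed runs held 2.63% of the summed 2pq of assimilated flies and 69.1% of that of P0. The unfixed parts of the segments held 39.3% of the sum in assimilated flies and 9.33% in P0, and the sum itself was 8909.0 in assimilated flies and 5697.3 in P0, 1.56 times as high. Over the rest of the 6 arms the sums were 9516.1 in assimilated flies and 9517.5 in P0.

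**Figure D4:**
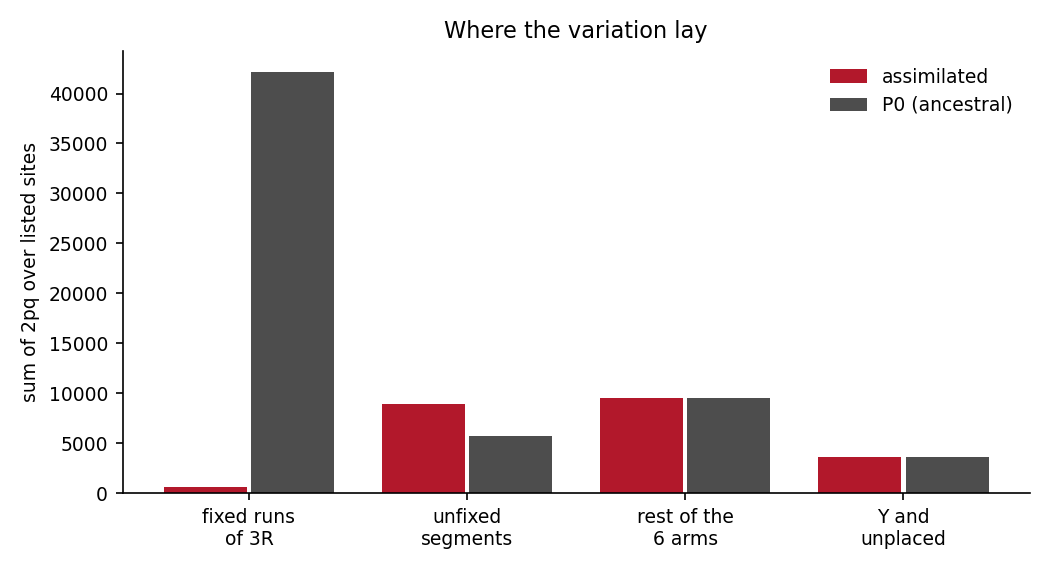
Sum of 2pq over the listed sites of the fixed runs, of the unfixed parts of the segments, of the rest of the 6 arms, and of Y and unplaced sequence, in assimilated flies (red) and P0 (grey). The runs sum to 597 in assimilated flies, against 42174 in P0, while the unfixed parts are higher in assimilated flies and the other 2 classes are nearly equal.

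The most variable windows of assimilated flies were those of the unfixed segments. On 3L the window at 15.9 to 16.0 Mb, which holds brm, the ATPase gene of the SWI/SNF chromatin remodelling complex, had a mean 2pq over segregating sites of 0.488 in assimilated flies and 0.348 in P0. On 3R the window at 7.2 to 7.3 Mb, which holds the limb patterning gene rn, had 0.486 in assimilated flies and 0.275 in P0. The windows with the largest mean change were in run 1 between 14.8 and 15.1 Mb, where they moved by 54.2 to 56.0 percentage points. Off 3R, a window of X at 5.7 to 5.8 Mb had 86.2% of its 29 segregating sites fixed and a mean change of 34.8 percentage points, but a median depth of 18 reads in assimilated flies and no changed site.

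Within the runs 1931 of 97211 segregating sites (1.99%) were not fixed in assimilated flies. Of these 891 had the rarer allele below 0.1, and 1040 had it at 0.1 or more. Of the sites at 0.1 or more, 21.8% had more than 1.5 times the depth of the pool in assimilated flies, against 0.933% of the fixed sites, and 20.9% had less than 0.5 times this depth, against 1.63% of the fixed sites. Only 8 of them changed. Of the sites left, 238 lay in 9 stretches of 10 kb with at least 10 such sites. The fullest held 68 sites at CG33337, with a median depth of 158.5 reads in assimilated flies and 153 in P0, and the next 53 sites at Ugt303B3, a UDP-glycosyltransferase gene, with 170 and 173 reads. Whether reads of other copies were placed there was not tested.

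Alleles without a read in P0 were seldom frequent in assimilated flies. At sites with at least 30 reads in both pools, 570417 had 1 allele only in P0, and at 124 of them the other allele had a frequency of at least 0.3 in assimilated flies. At 9 of these it was fixed. At position 28486312 of 3R, between genes, 47.3% of the reads of assimilated flies and none of 267 reads of P0 carried the alternative allele. Control flies had 288 reads there and nonassimilated flies 317, and the P0 depth was far above the median of 87 reads. Close by, unfixed sites at CG1894 had a median depth of 566.5 reads in assimilated flies and 434.5 in P0. Whether reads of other copies were placed there was not tested. Off 3R, 6 sites on the named arms with at least 30 reads in both pools had exchanged 1 allele for the other completely, 4 with the alternative allele gained and 2 with it lost. At position 17912011 of 2L it had 0 of 38 reads in assimilated flies and 38 of 38 in P0, and control flies also had only the reference allele, in 34 reads. At position 13580557 of 2R, in a UTR of CG6191, it had 0 of 41 reads in assimilated flies and 30 of 30 in P0. In the reverse direction, 94659 sites had an allele at 0.1 or more in P0 and no read of it in assimilated flies, 94059 of them on 3R. Of the 124 gained alleles, 41 also had no read in control and nonassimilated flies with at least 30 reads each. On 3L 6 of them lay together between positions 15714763 and 15729497, in the first window of the unfixed segment, at 32.8% to 46.7% in assimilated flies, with 81 to 99 reads in P0 and none of the allele. Of these 6 sites 1 is in the coding sequence and 1 in an intron of CG42570. A depth of 81 reads without the allele limits its P0 frequency but does not show that it was absent.

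By position in genes, the fixed sites of the runs were 14.96% coding, 7.36% UTR, 47.3% intronic and 28.7% intergenic. Over all segregating sites of the 6 arms the shares were 12.2%, 6.55%, 45.2% and 31.7% in the same order. Such sets lie in different stretches of the genome, and their shares were not tested. The segregating sites of the unfixed segments were 9.57% coding, 7.26% UTR, 48.6% intronic and 31.9% intergenic. The share of coding sites among the sites that remained in the runs was 11.4%. Sites listed only for other pools also bear on the losses. Of the sites that segregated in P0 in the control comparison, 28.1% in run 2 and 23.1% in run 1 were not listed for the assimilated pool, against 1.29% in the 3L segment and 1.17% on proximal 3R, and in run 2 their alternative allele was the rarer one in P0 at 95.8%. Such sites are not among the fixed sites counted here, nor in the means and sums of 2pq.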

How the data were processed

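DNA of 100 adult females per population was sequenced as 1 pool, and the authors aligned the reads to dm6 with BWA and called SNPs and InDels with GATK (versions not given in the sources used here). The deposited table lists, for each site, the raw read counts of both alleles (reference, then alternative) in each pool, with the authors' own p-values, ranks and q-values, which were not used. Allele frequency is the alternative count over the sum. The tables do not name the alleles, so SNPs and InDels were analysed together. Of the 9 tables, 5 were read, those of D907 and the 2 with the P0 pools of Mix, and 2 columns of control read counts in the Mix tables were not used. Members, gene lists and alternatives were chosen with earlier results of these data known.

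Fisher's exact test (two-sided) was run per site, and p-values were corrected by Bonferroni's method over 756078 sites (changed below 1e-05). Segregating sites had a minor allele frequency of at least 0.1 in P0, and a site was called fixed where 1 allele was at 0.02 or less. Fixed runs are windows of 100 kb with at least 90% of at least 5 segregating sites fixed, gaps of up to 5 windows bridged, at least 10 windows. P0 segments needed at least 5 such windows by their own rule, with the same bridging. Steps were placed by least squares. Genes (Ensembl release 115 annotation) were taken with 5 kb on each side, and those of the fixed lists with at least 5 segregating sites could be named, as could the 3 windows per arm with the largest mean change among windows of at least 20 segregating sites, the 5 with the most 2pq left, the 3 sites of lowest p on 3R and the 3 of largest change elsewhere. The last were taken from sites with at least 30 reads in both pools, a filter added after seeing the data, and ties were broken by position. The sites of lowest p in the unfixed segments (all listed sites on 3L, segregating sites on 3R) and those at the junction were also chosen after their values were seen. Genes of the lists with fewer than 5 segregating sites are given by their counts only. Intervals are Wilson 95% intervals for 200 chromosomes and cover sampling of chromosomes only. The median depth was 86 reads in assimilated flies and 87 in P0. The code was tested on simulated counts. Alternatives were other thresholds, read counts scaled to 200 chromosomes, a depth minimum, other bounds and window sizes, and control flies in place of P0. The tools were SciPy 1.17.1, Numba 0.67.0, pandas 2.3.3, NumPy 2.4.6 and Matplotlib 3.10.9, run in Python 3.11.15.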

Additional observations from a re-analysis of the deposited data

Results flagged for a closer look

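In 3 stretches the assimilated and control pools moved away from P0 in opposite directions. The difference between the populations was not tested, because each is 1 pool. In the 3L segment the allele rarer in P0 differed from P0 by 21.0 percentage points in assimilated flies and by -13.4 points in control flies, with means of 43.8%, 9.42% and 22.8% in assimilated, control and P0 flies. On 3R from the step at ftz to the junction it differed by 24.7 points in assimilated flies and by -8.31 points in control flies, with means of 41.8%, 8.77% and 17.1%. In run 1 the alleles lost from assimilated flies differed from P0 by -48.0 points in assimilated flies and by 20.1 points in control flies, with means of 0.0128%, 68.1% and 48.0%.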

How the results depend on the processing

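The count of changed sites depended on the threshold and on how reads were weighted. Of 33122 sites, 13894 passed at 1e-08 and 112237 passed a Benjamini-Hochberg adjusted p of 0.05. With effective counts for 200 chromosomes 8170 passed, 7855 of them in run 1 and 233 in run 2, and with control flies in place of P0 21651 passed. The share on 3R, 99.3%, was 98.9% at 1e-08, 94.9% with Benjamini-Hochberg adjustment and 96.3% against control flies. The fixed share over all sites, 66.3%, was 65.7% where no read of the other allele was allowed, 66.9% with a bound of 0.05, 63.6% and 77.8% with a P0 minor allele frequency of at least 0.05 and 0.2, 69.2% at sites with at least 30 reads and 67.8% at sites listed for all pools. On 3R, in the same order, the share of 84.2% was 83.4%, 84.7%, 83.3%, 92.5%, 84.7% and 84.8%. In all, 39 of 58 alternative values stayed within the spread or 1.5 times the main count, and 19 moved. Directions were not assessed. Run 2 had slightly more changed sites than run 1 at the main threshold, but fewer at 1e-08 and with effective counts. The runs measured 20.379 Mb together and 19.6 to 20.379 Mb with other windows or shares, and with 50-kb windows or a share of 95% run 1 was split, giving 3 runs. With 1 pool per population, sites are linked and not independent, leaving out a replicate was not possible, and at about 86 reads the loss of an allele is called only where it was common in P0. No paired analysis was possible because each population is 1 pool.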
